A study of Homo sapiens with 3 samples.

Results

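SR proteins and heterogeneous nuclear ribonucleoproteins (hnRNPs) are the RNA-binding proteins that decide which exons of a transcript are kept. The genes described here are the SRSF and HNRNP families together with the PTBP, TRA2 and MBNL genes and RBFOX2, 37 genes in all. They were taken by name from the array's annotation, with every probe set annotated to a single gene, on all 3 arrays. Of these, 35 had at least 1 probe set annotated to that gene alone, 145 probe sets in total, out of 19775 genes and 54613 probe sets on the array. SRSF2 had 3 probe sets and HNRNPH2 had 1, each annotated to several genes, so no signal of either gene is used here. Such probe sets were also left out for PTBP1 (5), HNRNPA3 (3), HNRNPA1 (2) and HNRNPUL2 (1), beside those of their own. The study used IMR-90, a line of human fetal lung fibroblasts, and transfected the cells for 24 h with 1 of 3 siRNAs. SETD8 siRNA 1 and SETD8 siRNA 2 (labelled SETD8-1 and SETD8-2) target SETD8, now called KMT5A, the enzyme that places the single methyl group on lysine 20 of histone H4. The control siRNA is labelled GL3, and all cells were of the same line and received a transfection. Each siRNA was measured on 1 array, so no value has a replicate error, no p-value is given, and each fold change describes a pair of arrays.

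SR proteins carry an RNA recognition motif and a tail rich in arginine and serine, bind enhancer sequences in exons and usually promote inclusion. The hnRNPs coat the nascent transcript and often bind silencers, so that many exons are set by the balance of both families. Most of these genes are expressed at a high level in every cell type, and several limit their own output by including exons that send their transcripts to nonsense-mediated decay. PTB, MBNL and RBFOX proteins act on smaller sets of exons and differ more between tissues.

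MAS5, Affymetrix's method that reduces the probes of a set to 1 linear signal, scales arrays to a common level. Median signals were 45.3, 44.9 and 46.2 on the SETD8 siRNA 1, SETD8 siRNA 2 and control arrays, and means trimmed by 2% on each side were 497.2, 497.2 and 497.3. KMT5A, the target, read 45.9% to 74.7% of control on its 4 probe sets with SETD8 siRNA 1, and 62.2% to 86.3% with SETD8 siRNA 2. All 8 fibroblast markers were bright, summing to 139488 with SETD8 siRNA 1, 158250 with SETD8 siRNA 2 and 148683 with the control siRNA, but single markers moved more: with SETD8 siRNA 1 DCN was at 38.6% and THY1 at 66.9% of control, and with SETD8 siRNA 2 LUM was at 173.3% and COL3A1 at 70.7%. The 4 endothelial markers measured summed to 295.5 with SETD8 siRNA 1 and 142.1 with SETD8 siRNA 2, against 117.1 with the control siRNA. Of these, PECAM1 (135.0, 52.7 and 49.0 in that order of arrays) and VWF (130.5, 80.9 and 59.7) were higher with both siRNAs. With SETD8 siRNA 2, PECAM1 was only at 107.55% of control. CDH5 (1.5 to 4.9 over the arrays) lay under the lowest signal used here, a floor of 11.7. KDR read 27.1 with SETD8 siRNA 1, and lay under the floor with SETD8 siRNA 2 (3.6) and the control (6.9). The 3 leukocyte markers summed to 91.3 and 105.5 with SETD8 siRNAs 1 and 2, against 52.9 with the control, with CD3E at 55.1, 37.2 and 20.0, CD14 at 13.1, 52.4 and 1.8 and PTPRC at 23.1, 15.9 and 31.1. The 6 epithelial markers summed to 3049.5 and 6289.2 with SETD8 siRNAs 1 and 2, against 3227.8 with the control, nearly all of it KRT18 (2962.8, 6010.1 and 2987.4). EPCAM read 49.1, 194.2 and 157.1, CDH1 17.7 to 23.4, and ESRP1 lay under the floor on all 3 arrays. KRT19 read 3.2, 25.3 and 55.5, lower than the control with both siRNAs. CLDN4 read 3.8, 40.7 and 7.9, above the floor only with SETD8 siRNA 2. The part of these markers in the splicing factor values was not tested. Fewer cells of a type and less RNA per cell cannot be told apart in such bulk samples.

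Splicing factor signal was slightly lower with both SETD8 siRNAs for most of the genes. On the brightest probe set of each gene, 30 of 35 were lower with both siRNAs at any size and 1 was higher with both. Over all 12307 genes above the filter on low signal (a mean signal of at least 42.0, the median over probe sets), 33.9% were lower with both and 31.1% higher. The splicing factors are bright, 32 of the 35 lying in the highest quartile of signal, and 28 of these 32 were lower with both, where 25.2% of all genes in that quartile were. Both comparisons use the same control array, which held the highest of the 3 signals for 30 splicing factors, while the SETD8 siRNA 1 array held it for 1 and the SETD8 siRNA 2 array for 4. Over all genes these shares were 33.9%, 34.0% and 32.1%.

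**Figure D1:**
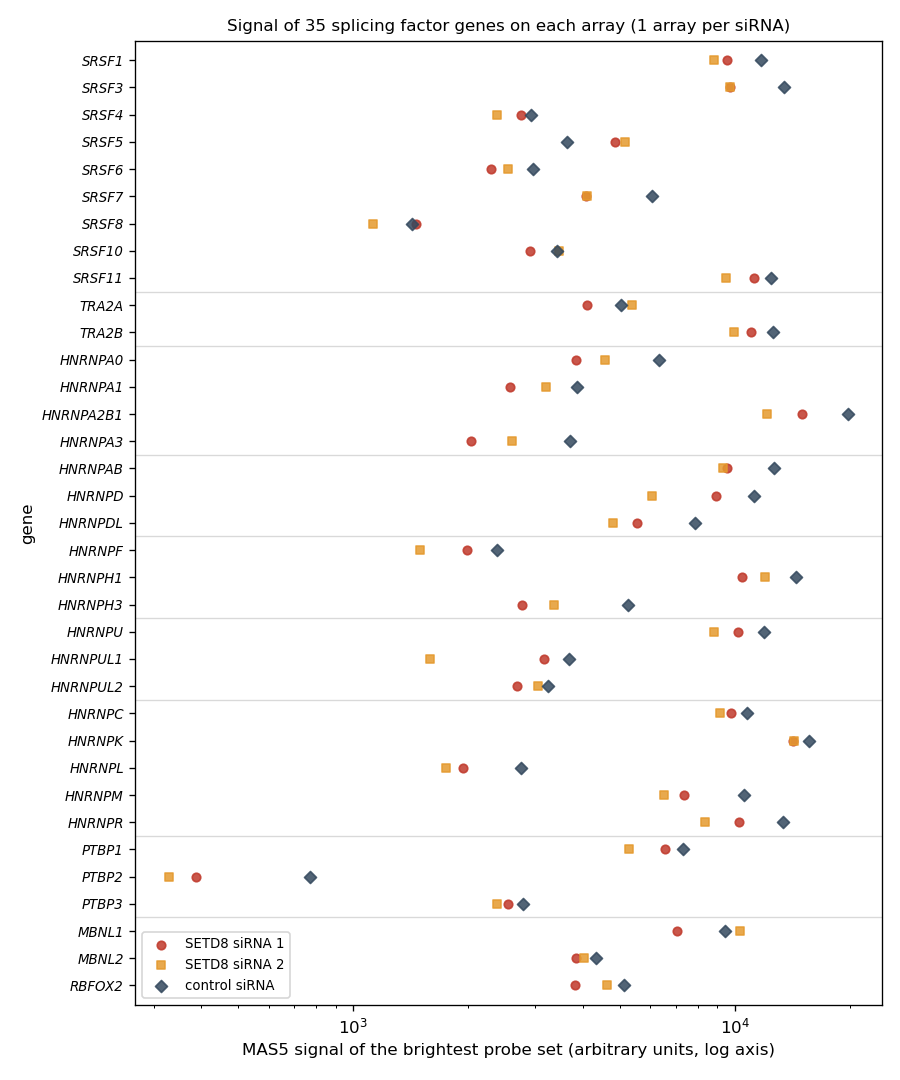
MAS5 signal (log axis) of the brightest probe set of each of the 35 genes, with circles for SETD8 siRNA 1, squares for SETD8 siRNA 2 and diamonds for the control siRNA, 1 array each, and lines between the families. The diamond lies to the right of both other symbols for 30 genes and to the left of both only for SRSF5.

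The changes were small. The median log2 fold change over the 35 genes was -0.33 with SETD8 siRNA 1 and -0.41 with SETD8 siRNA 2, against -0.02 and -0.01 over all genes and 0.05 and 0.06 over genes of the highest signal quartile. No splicing factor was at least 2-fold higher or lower with both siRNAs, a size that 1.5% of all genes reached upward and 3.23% downward. At 1.5-fold, HNRNPH3 and PTBP2 were lower with both siRNAs (2 of 35, where 7.37% of all genes were) and none was higher (4.59% of all genes). These shares lie at or under those of all genes, which include dimmer genes. In the highest signal quartile 1 of 32 splicing factors was at least 1.5-fold lower with both, against 2.66% of all genes there. At 2-fold lower with both, the share of all genes in that quartile was 0.942%. Against the genes of that quartile, the splicing factors were thus not clearly under the share. As a yardstick for single genes, 95% of all genes in the highest signal quartile differed between the siRNA 1 and siRNA 2 arrays by no more than 1.14 on the log2 scale. No splicing factor exceeded the yardstick of its own quartile with SETD8 siRNA 1, and HNRNPUL1 was the 1 gene that did with SETD8 siRNA 2.

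**Figure D2:**
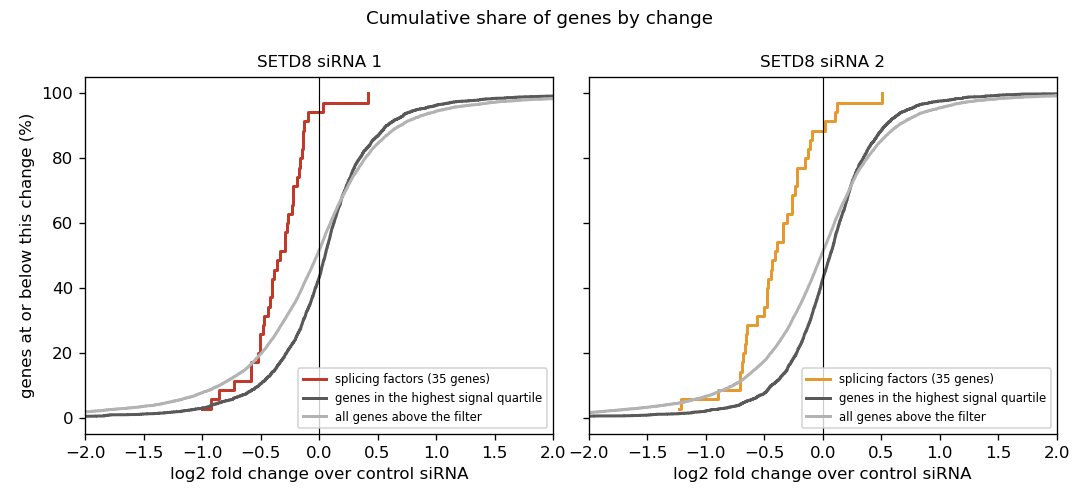
Cumulative share of genes (%) against the log2 fold change over the control siRNA, with SETD8 siRNA 1 at left and SETD8 siRNA 2 at right, for the 35 splicing factors (coloured), the 3077 genes of the highest signal quartile (dark grey) and all 12307 genes above the filter (light grey). The coloured curves cross 50% at -0.33 and -0.41, where both grey curves cross it near 0, and they have no tail beyond 2-fold on the higher side.

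Among the 9 SR protein genes measured, 6 were lower with both siRNAs (33.9% of all genes were) and 1 was higher (31.1% of all genes). SRSF7, whose protein carries a zinc knuckle beside its RNA recognition motif, had a signal of 4062.4 with SETD8 siRNA 1 and 4106.7 with SETD8 siRNA 2, against 6068.4 with the control siRNA. SRSF3, the smallest SR protein and an adaptor for mRNA export, had 9690.0 and 9740.4 with SETD8 siRNAs 1 and 2, against 13483.9 with the control. In both genes the SETD8 arrays lay close together, and the control was 1.49-fold and 1.48-fold above them for SRSF7 and 1.39-fold and 1.38-fold for SRSF3. SRSF1, the prototype of the family, was at 9563.5 with SETD8 siRNA 1 and 8824.4 with SETD8 siRNA 2, against 11724.5 with the control. Of 7 SRSF1 probe sets above the filter, 5 were lower with both siRNAs. Of 4 for SRSF7, 3 were lower with both and 1 was higher with both. With all its probe sets averaged, SRSF1 was at -0.22 with SETD8 siRNA 1 and -0.05 with SETD8 siRNA 2 on the log2 scale. The log2 fold changes of SRSF6 were -0.36 and -0.22, those of SRSF11 -0.15 and -0.39, and those of SRSF4 -0.09 and -0.30. The sign of SRSF11 depended on the probe set, with a dimmer one at 0.27 and 0.67.

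SRSF5 stood against the rest and is singled out here after its values were seen. Its signal was 4863.2 with SETD8 siRNA 1 and 5163.8 with SETD8 siRNA 2, against 3631.9 with the control siRNA, or 1.34-fold and 1.42-fold of control. A second bright probe set gave 3919.9 and 3968.5 with SETD8 siRNAs 1 and 2, against 3067.1 with the control. Both SETD8 arrays were above the control on both probe sets, by 0.35 to 0.51 on the log2 scale. The remaining SRSF5 probe set was dim, at 16.8 with SETD8 siRNA 1, 23.6 with SETD8 siRNA 2 and 33.4 with the control, and ran the other way under the filter. SRSF5 encodes an SR protein that binds exonic enhancers and, like its relatives SRSF4 and SRSF6, has a pair of RNA recognition motifs. With all 3 probe sets averaged, its value with SETD8 siRNA 1 was -0.07 on the log2 scale in place of 0.42.

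The remaining SR genes and TRA2A differed in sign between the siRNAs. SRSF8, a close relative of SRSF2, was at 1456.9 with SETD8 siRNA 1, 1126.3 with SETD8 siRNA 2 and 1422.1 with the control siRNA. SRSF10, which can turn into a general repressor of splicing when it loses its phosphates, had 2898.4, 3451.6 and 3411.0 in that order of arrays. TRA2A, an SR-like protein that binds enhancers rich in GA, read 4099.5 with SETD8 siRNA 1 and 5390.3 with SETD8 siRNA 2, against 5025.1 with the control. For TRA2A the control lay between the SETD8 arrays, and all 3 of its probe sets above the filter placed the arrays in this order. Its paralog TRA2B read 11061.7 with SETD8 siRNA 1 and 9959.1 with SETD8 siRNA 2, against 12619.5 with the control, so both SETD8 arrays were below it. All 3 TRA2B probe sets above the filter were lower with both.

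All 18 hnRNP genes measured were lower with both siRNAs on their brightest probe set, with medians of -0.40 and -0.57 on the log2 scale. Of the 11 SR and TRA2 genes, 7 were lower with both, with medians of -0.23 and -0.34. The share over all genes was 33.9%, and 25.2% in the highest signal quartile. With shared probe sets left out, 14 hnRNP genes were measured and 11 were lower with both, the exceptions being HNRNPA1, HNRNPA2B1 and HNRNPM, and with all probe sets averaged 14 of 18 were, with HNRNPC as a further exception. Whether the hnRNP and SR genes differ was not tested.

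The hnRNP A proteins bind silencers and oppose SR proteins at alternative splice sites. HNRNPA3 had a signal of 2035.2 with SETD8 siRNA 1 and 2607.3 with SETD8 siRNA 2, against 3692.3 with the control siRNA. HNRNPA0 was at 3836.6 and 4571.7 with SETD8 siRNAs 1 and 2, and at 6342.5 with the control. On these brightest probe sets the SETD8 siRNA 1 array was the lowest in both genes, at 55.1% and 60.5% of control. The order varied on the others. HNRNPA0 also read 1656.9 with SETD8 siRNA 1, 1236.3 with SETD8 siRNA 2 and 1550.6 with the control, and 562.8, 550.2 and 919.4 in that order. Another HNRNPA3 probe set read 1984.9 and 1968.2 with SETD8 siRNAs 1 and 2, against 2948.7, and the last 540.8 and 756.9, against 838.2. HNRNPA2B1, which shares much of its sequence with HNRNPA1, had 14974.2 with SETD8 siRNA 1, 12141.9 with SETD8 siRNA 2 and 19816.5 with the control. The other HNRNPA2B1 probe sets above the filter were at -0.40 and -0.26 on the log2 scale with SETD8 siRNA 1. With SETD8 siRNA 2 they were at 0.13 and -0.02, so that decrease rests on the brightest. For HNRNPA1, the most studied hnRNP, the values were 2575.1 with SETD8 siRNA 1 and 3207.5 with SETD8 siRNA 2, against 3850.5 with the control. The other HNRNPA1 probe sets above the filter, at 0.66 and 0.74 on the log2 scale with SETD8 siRNA 2, went against the brightest, and 2 further probe sets annotated to several genes were left out.

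The hnRNP D proteins bind AU-rich elements and act on mRNA decay as well as in the nucleus. HNRNPD, also called AUF1, read 8934.7 with SETD8 siRNA 1 and 6063.1 with SETD8 siRNA 2, against 11265.0 with the control siRNA, so SETD8 siRNA 2 gave 53.8% of control and SETD8 siRNA 1 gave 79.3%. Of its 6 probe sets above the filter, 5 were lower with both siRNAs, while 1 was higher with both, at 753.4 and 961.9 with SETD8 siRNAs 1 and 2, against 511.5 with the control. HNRNPDL read 5531.1 with SETD8 siRNA 1 and 4795.2 with SETD8 siRNA 2, against 7848.3 with the control, and 4 of its 6 probe sets were lower with both. HNRNPAB, measured by 1 probe set with a suffix that marks probes shared between transcripts or genes, lay at 75.5% and 73.7% of control.

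Proteins of the hnRNP F/H group bind runs of guanine near splice sites and polyadenylation sites. HNRNPH3 had a signal of 2776.0 with SETD8 siRNA 1 and 3366.1 with SETD8 siRNA 2, against 5263.7 with the control siRNA, so the control was 1.90-fold and 1.56-fold above the SETD8 arrays. Its 4 probe sets were the most even of any gene with 4 or more above the filter, with log2 fold changes of -0.92 ± 0.03 with SETD8 siRNA 1 and -0.65 ± 0.10 with SETD8 siRNA 2 (mean and SD over 4 probe sets of the same arrays, not over replicates). All 4 have a suffix that marks probes shared between transcripts or genes, so HNRNPH3 was not measured with shared probe sets left out. Whether the 4 read overlapping probes was not tested. HNRNPF had 1 probe set, also with a shared suffix, so it too was not measured with shared probe sets left out. HNRNPF read 1984.4 with SETD8 siRNA 1 and 1500.2 with SETD8 siRNA 2, against 2382.7 with the control. HNRNPH1, at 72.3% and 83.2% of control, was lower with both siRNAs on all 3 probe sets above the filter.

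In the hnRNP U group, whose founding member binds RNA and nuclear scaffold DNA, HNRNPUL1 gave the widest gap between the siRNAs on the brightest probe sets. It read 3155.0 with SETD8 siRNA 1 and 1588.6 with SETD8 siRNA 2, against 3687.6 with the control siRNA. The SETD8 siRNA 2 array thus lay at 43.1% of control and the SETD8 siRNA 1 array at 85.6%. A dimmer probe set of HNRNPUL1 gave 141.1 with SETD8 siRNA 1, 119.4 with SETD8 siRNA 2 and 174.2 with the control, in the same order but with a smaller span. HNRNPU (-0.22 and -0.43 on the log2 scale) was lower with both on all 4 probe sets above the filter, and HNRNPUL2 (-0.27 and -0.09) on both of its own.

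Of the other hnRNPs, HNRNPL, which binds CA repeats, read 1937.2 with SETD8 siRNA 1 and 1751.4 with SETD8 siRNA 2, against 2751.2 with the control siRNA. HNRNPM, which binds GU-rich sites, had 7349.7 and 6537.7 with SETD8 siRNAs 1 and 2, against 10546.5 with the control. Of 5 HNRNPM probe sets above the filter, 2 were lower with both siRNAs and 1 was higher with both. HNRNPR, a relative of SYNCRIP, had 10237.1 and 8340.5, against 13379.9 with the control. On the brightest probe sets of these genes SETD8 siRNA 2 gave the lowest signal and the log2 fold changes were between -0.39 and -0.69. HNRNPC, which binds uridine tracts and keeps cryptic exons out, was at 90.9% and 85.1% of control, and HNRNPK, which binds cytosine-rich sites, at 90.9% and 91.7%. For HNRNPK the second probe set read 0.02 on the log2 scale with SETD8 siRNA 1, so no direction is settled there. A dim HNRNPC probe set below the filter had a signal of 98.5 with SETD8 siRNA 2 only, against 10.1 with SETD8 siRNA 1 and 14.6 with the control.

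On the brightest probe sets PTBP2 gave the lowest log2 fold changes of the 35 genes with both siRNAs (-0.998 and -1.23), close to HNRNPH3 with SETD8 siRNA 1 (-0.92) and HNRNPUL1 with SETD8 siRNA 2 (-1.21). Those genes were lower than PTBP2 after quantile normalization and with probe sets averaged, so the order is not settled. PTBP2 is the paralog of PTBP1 best known from neurons, and both bind pyrimidine tracts and repress exons. Its signal was 386.6 with SETD8 siRNA 1 and 329.7 with SETD8 siRNA 2, against 772.0 with the control siRNA, which is 50.1% and 42.7% of control, just short of 2-fold with SETD8 siRNA 1. It lay in a lower signal quartile, whose yardstick was 1.72 on the log2 scale, and its second probe set, at 50.5, 62.0 and 69.9 in that order of arrays, gave -0.47 and -0.17. PTBP1 read 6570.2 with SETD8 siRNA 1 and 5286.7 with SETD8 siRNA 2, against 7336.3 with the control. Its other probe set above the filter was dim, at 59.3 and 31.5 with SETD8 siRNAs 1 and 2, against 54.8 with the control. Both have a shared suffix, and PTBP1 was not measured with shared probe sets left out. PTBP3 lay at 91.7% and 85.7% of control. Of 5 PTBP3 probe sets above the filter, 3 were lower with both siRNAs and 1 was higher with both. For PTBP1, 5 probe sets annotated to several genes were left out.

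MBNL1, whose protein is trapped by CUG repeats in myotonic dystrophy, read 7061.1 with SETD8 siRNA 1 and 10293.8 with SETD8 siRNA 2, against 9430.0 with the control siRNA. Its arrays lay on either side of the control, and the difference between them, 0.54 on the log2 scale, was the largest upward one (SETD8 siRNA 2 minus SETD8 siRNA 1) of the 35 genes on their brightest probe sets, while HNRNPA1 had a larger one with probe sets averaged or shared ones left out. MBNL2 was at 88.6% and 92.8% of control, with probe sets that disagreed in sign. RBFOX2, a regulator of exons in muscle, brain and mesenchymal cells, read 3802.5 with SETD8 siRNA 1 and 4621.7 with SETD8 siRNA 2, against 5136.6 with the control, and all 3 of its probe sets above the filter were lower with both.

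**Figure D3:**
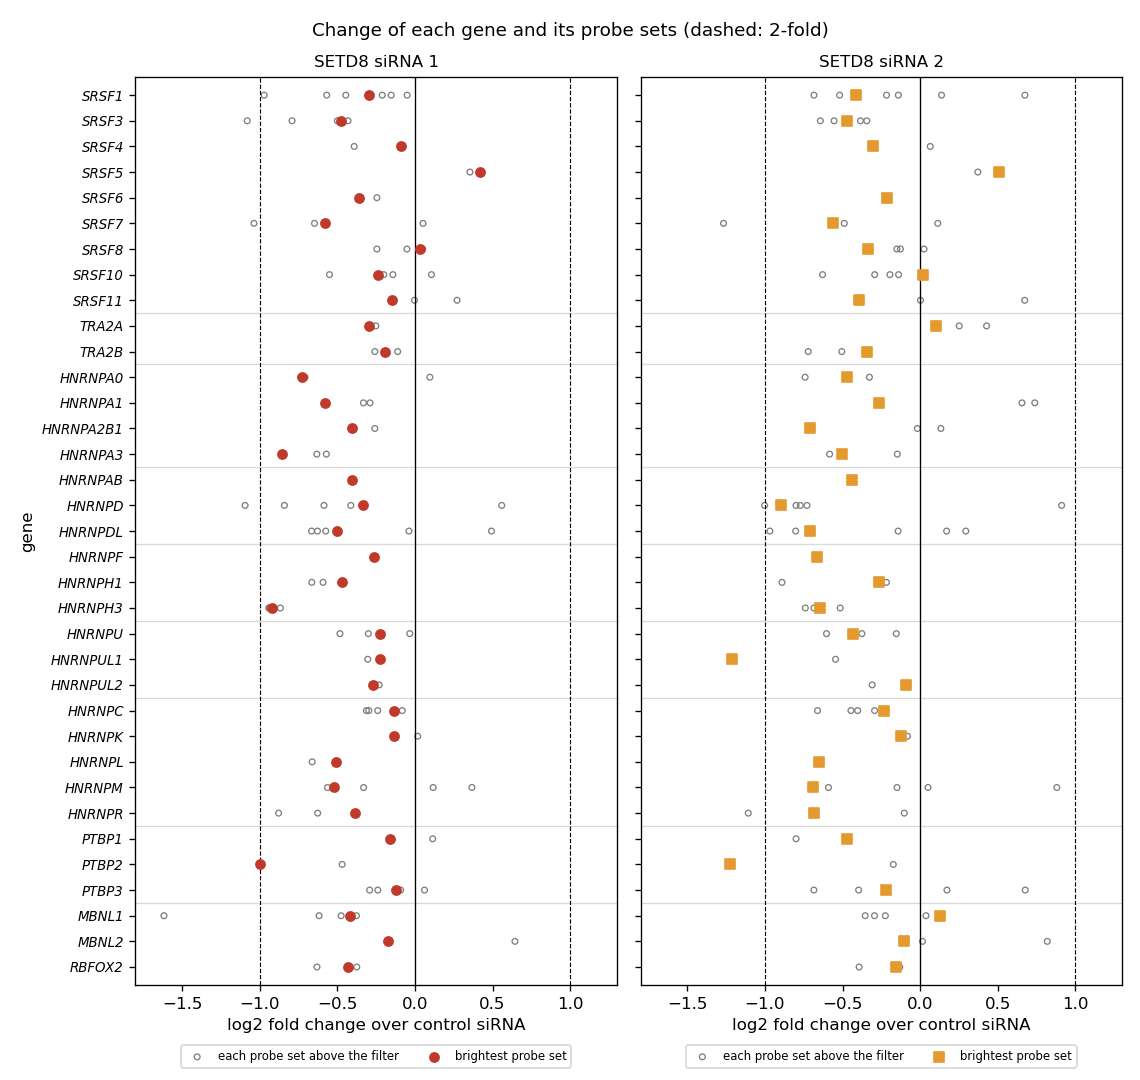
Log2 fold change over the control siRNA of each gene, with SETD8 siRNA 1 at left and SETD8 siRNA 2 at right; filled symbols are the brightest probe set, open circles each probe set above the filter, and dashed lines mark 2-fold. The 4 HNRNPH3 probe sets lie close together, those of HNRNPD, HNRNPM and MBNL2 lie on both sides of 0, and the SRSF5 symbols lie right of 0 in both panels.

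Probe sets of a gene can read different parts of its transcripts, and their agreement was partial. Whether those of a gene overlap was not tested. Of the 145 probe sets, 118 passed the filter, and 84 of these (71.2%) were lower with both siRNAs, 9 were higher with both and 1 was at least 2-fold lower with both. Of all 23224 named probe sets above the filter, 35.2% were lower with both, 29.6% higher with both and 2.93% at least 2-fold lower with both. The 1 was a dim SRSF7 probe set, at 127.2 with SETD8 siRNA 1 and 108.5 with SETD8 siRNA 2, against 261.0 with the control siRNA. The 27 probe sets under the filter had medians of -0.04 and 0.00. Of 33 genes with more than 1 probe set above the filter, 14 had all of them lower with both siRNAs. The same share over all genes was not computed, so this count has no background to set it against. Among these 14 were SRSF3, HNRNPA3, HNRNPH3, HNRNPC, HNRNPU, HNRNPR and RBFOX2. For 24 of the 35 genes the brightest probe set had a suffix that marks probes shared between transcripts or genes, and SR and hnRNP paralogs and their processed pseudogenes are similar enough that a single gene's signal is uncertain there.

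The siRNAs were also set against each other. In the difference of SETD8 siRNA 2 minus SETD8 siRNA 1, 19 splicing factors were lower and 16 higher, with a median of -0.10 on the log2 scale, where 50.2% of all genes were lower and 49.8% higher. At 1.5-fold only HNRNPUL1 was lower (1 of 35, against 13.5% of all genes) and none was higher (14.3% of all genes). In the highest signal quartile these shares of all genes were 7.93% and 9.49%. Ranked by that difference, the lowest were HNRNPUL1 (-0.99), HNRNPD (-0.56) and HNRNPF (-0.40), and the highest were MBNL1 (0.54), TRA2A (0.39) and HNRNPA3 (0.36). With SETD8 siRNA 1 none of the 35 was at least 2-fold lower (7.75% of all genes) and 4 were at least 1.5-fold lower (16.4%; in the highest signal quartile 3 of 32, against 8.25% of all genes there), namely HNRNPA0, HNRNPA3, HNRNPH3 and PTBP2. With SETD8 siRNA 2, HNRNPUL1 and PTBP2 were at least 2-fold lower (2 of 35, against 6.65% of all genes) and 10 were at least 1.5-fold lower (14.7%; in the highest signal quartile 8 of 32, against 5.95% of all genes there), namely HNRNPA2B1, HNRNPD, HNRNPDL, HNRNPF, HNRNPH3, HNRNPUL1, HNRNPL, HNRNPM, HNRNPR and PTBP2. Between these lists HNRNPH3 and PTBP2 were shared. In the highest signal quartile 2.99% of all genes were at least 2-fold lower with SETD8 siRNA 1, where no splicing factor was. With SETD8 siRNA 2 that share was 2.14%, beside 1 of 32 splicing factors. None of the 35 was at least 1.5-fold higher with SETD8 siRNA 1 (12.7% of all genes) or with SETD8 siRNA 2 (11.6%). In that quartile these shares were 9.78% and 8.19%.

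Genes that work with these factors gave medians of smaller or similar size. Of 55 core spliceosome genes, 36 were lower with both siRNAs and 4 higher, with medians of -0.13 and -0.36. The 33 other splicing regulators had 22 lower and 2 higher, with medians of -0.20 and -0.26. Over all genes 33.9% were lower with both and 31.1% higher, and at 2-fold 3.23% were lower and 1.5% higher. The 1 core gene at least 2-fold lower with both was LSM5, a subunit of the ring that binds U6 RNA, with 4373.4 with SETD8 siRNA 1 and 4079.7 with SETD8 siRNA 2, against 8775.2 with the control siRNA. The 1 such regulator was CELF2, which binds UG-rich sites and often opposes MBNL proteins, with 256.8 and 307.7 with SETD8 siRNAs 1 and 2, against 664.4 with the control. No gene of either list was at least 2-fold higher with both. The 9 kinases and importins of SR proteins, which phosphorylate the tails and carry the proteins into the nucleus, had medians of 0.00 and -0.07, with 3 lower and 3 higher with both. The 12 genes of the exon junction complex and mRNA export had medians of -0.12 and -0.30, and the 6 of nonsense-mediated decay -0.10 and 0.05. For scale, 15 G2 and mitosis genes, chosen with their decrease known, had medians of -2.94 and -2.66, and all 15 were at least 2-fold lower with both. These genes mark dividing cells and moved on the same arrays, and their part in the splicing factor values was not tested.

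**Figure D4:**
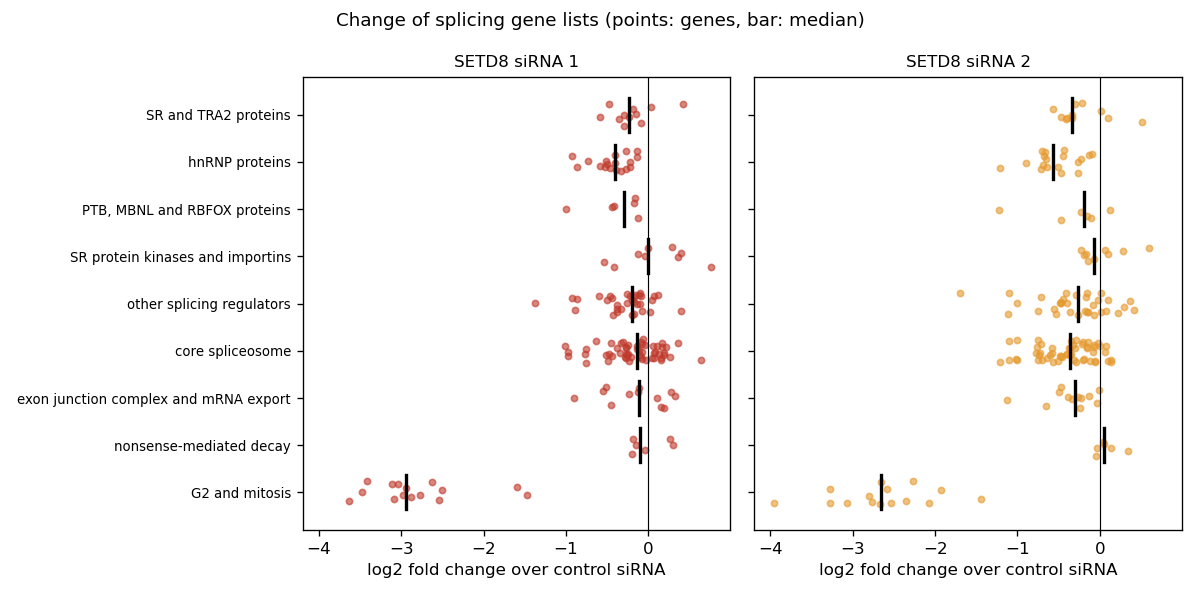
Log2 fold change over the control siRNA of each gene (points) in the splicing factor groups, the related lists and the G2 and mitosis genes, with SETD8 siRNA 1 at left and SETD8 siRNA 2 at right, on the same axis; black bars are list medians. The hnRNP bar lies at -0.40 and -0.57, the SR and TRA2 bar at -0.23 and -0.34, and the G2 and mitosis bar at -2.94 and -2.66.

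The start regions of 4 genes are shown because their values stood out: SRSF5 as the 1 gene higher with both siRNAs, HNRNPH3 and PTBP2 as those at least 1.5-fold lower with both, and HNRNPUL1 as the most different between the siRNAs. Each line is the 250 bases before the start of the gene, 5′ to 3′ on the gene's strand, from RefSeq on GRCh38.p14, at chr14:69766892-69767141, chr10:68331443-68331692, chr1:96722388-96722637 and chr19:41262307-41262556, all on the plus strand. Capitals mark the motifs searched on both strands, which were CCGGAAG (ETS factors), CCAAT (the CCAAT box), TTTGAA (the CHR element of cell cycle genes), and TTTCCCGC or TTTGGCGC (E2F factors).
SRSF5: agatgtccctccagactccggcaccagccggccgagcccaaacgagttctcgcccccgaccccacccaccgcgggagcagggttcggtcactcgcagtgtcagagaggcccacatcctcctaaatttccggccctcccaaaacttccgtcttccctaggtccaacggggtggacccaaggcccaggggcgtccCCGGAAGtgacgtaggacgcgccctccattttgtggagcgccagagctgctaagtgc
HNRNPH3: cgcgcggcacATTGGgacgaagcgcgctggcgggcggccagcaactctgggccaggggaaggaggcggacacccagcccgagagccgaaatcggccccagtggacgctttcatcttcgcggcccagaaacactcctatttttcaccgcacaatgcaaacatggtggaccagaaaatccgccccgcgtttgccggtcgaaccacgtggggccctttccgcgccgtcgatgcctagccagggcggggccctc
PTBP2: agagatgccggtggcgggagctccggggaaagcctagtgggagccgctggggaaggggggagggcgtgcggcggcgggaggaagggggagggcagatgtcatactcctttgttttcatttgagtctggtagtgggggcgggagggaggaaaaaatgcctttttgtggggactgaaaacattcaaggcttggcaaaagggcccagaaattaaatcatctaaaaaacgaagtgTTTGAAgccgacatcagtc
HNRNPUL1: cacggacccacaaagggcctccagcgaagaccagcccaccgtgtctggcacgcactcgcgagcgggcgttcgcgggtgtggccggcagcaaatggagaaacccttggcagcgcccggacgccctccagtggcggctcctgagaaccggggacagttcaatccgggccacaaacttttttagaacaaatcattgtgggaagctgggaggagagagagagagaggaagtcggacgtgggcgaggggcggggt

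Of the 37 genes, 33 had a start region in the table. The CCAAT box was in 15 of the 33 (45.5%), where 33.0% of all 27305 start regions of that length held it, and the ETS motif was in 4 (12.1%, against 8.82%). The CHR element was in 3 (9.09%, against 13.6%), among them PTBP2, and an E2F motif in 2, SRSF10 and TRA2B (6.06%, against 1.96%). By comparison, 27 of 52 core spliceosome start regions (51.9%) held the ETS motif, and 8 of 13 G2 and mitosis start regions (61.5%) held the CHR element and 12 of 13 (92.3%) the CCAAT box. In the printed sequences SRSF5 holds the ETS motif, HNRNPH3 a CCAAT box on the opposite strand and PTBP2 the CHR element, while HNRNPUL1 holds none of these letters. A match describes the sequence only and was not tied to binding or to the values above.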

How the data were processed

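RNA of 3 IMR-90 cultures, 1 for each siRNA, was hybridised to 1-colour Affymetrix arrays, as the labels' protocols describe. The authors deposited linear intensity values, 1 for each probe set; the submitters' processing notes name MAS5, with no settings. MAS5 brings arrays to a common level, which would hide a shift of all genes, and the values were used without another scaling. Detection calls were not used. Gene names came from the platform annotation, for 41091 probe sets with 1 symbol (41037 updated through RefSeq gene numbers); 1801 with several symbols were dropped and 11721 had no name. Signals below 11.7, the 25th percentile, were raised to it before log2. A gene was read from its brightest probe set by mean log2 signal and kept when that mean was at least the median over probe sets (5.39, a signal of 42.0). With 1 array per siRNA no test was run. Calls are fixed sizes, and the number of arrays limits the precision. The 2-fold rule was run on simulated arrays holding unchanged genes and changes of 2-fold or more. Their noise was a fixed setting not measured on these arrays. That run therefore does not show how sure calls among the smaller changes seen here are. Genes and lists were chosen with earlier results of these data known. By rule, values by array were given for genes at least 1.5-fold apart with both siRNAs, at least 2-fold with either, or among the 3 most different between siRNAs in each direction; further genes follow the families. Motifs were picked once the values were seen. Alternatives comprised scaling to equal medians, quantile normalization, adding a pseudocount of 16, dropping the filter, filtering at the 75th percentile, averaging probe sets, dropping shared probe sets (suffixes _s_at, _x_at, _a_at), and calls at 1.5-fold and at 3-fold; an average over probe sets above the filter was chosen after seeing the data. Software was Python 3.11.15 with numpy 2.4.6, pandas 2.3.3 and matplotlib 3.10.9.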

Additional observations from a re-analysis of the deposited data

Results flagged for a closer look

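In 4 genes the SETD8 siRNAs lay on opposite sides of the control on the brightest probe set, with 1 array each, so the difference was not tested. The log2 difference, SETD8 siRNA 2 minus SETD8 siRNA 1, was 0.54 for MBNL1, 0.39 for TRA2A, 0.25 for SRSF10 and -0.37 for SRSF8. All 4 lay under the yardstick of their signal quartile, 1.14 for the first 3 and 1.25 for SRSF8. The opposite signs held on all 3 TRA2A probe sets above the filter. With the probe sets of a gene averaged, both siRNAs were below the control for MBNL1 (-0.20 with SETD8 siRNA 2), SRSF10 (-0.25 with SETD8 siRNA 2) and SRSF8 (-0.05 with SETD8 siRNA 1).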

How the results depend on the processing

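The count of splicing factors lower with both siRNAs was 28 to 31 of 35 under every alternative that measured all 35, and 21 of 27 with shared probe sets left out. The medians against the control stayed negative under all alternatives, from -0.27 to -0.40 with SETD8 siRNA 1 and from -0.22 to -0.49 with SETD8 siRNA 2. No scaling moved the median of all genes by over 0.1 on the log2 scale. The median difference between the siRNAs (-0.10) turned to 0.033 with probe sets averaged, 0.047 with those above the filter averaged and 0.11 without shared probe sets, so its direction is not settled. Without shared probe sets, 0 genes were higher with both, since SRSF5 has only shared ones, and 11 of 14 hnRNP genes were lower with both; 3 genes were higher with both when probe sets above the filter were averaged. The count at least 2-fold lower with SETD8 siRNA 2 (2) was 0 under either average of probe sets (HNRNPUL1 at -0.88 and PTBP2 at -0.70) and 0 at 3-fold; at 1.5-fold the counts were 10 with SETD8 siRNA 2, 4 with SETD8 siRNA 1 and 2 with both, the last being 4 after quantile normalization. Signs of single values were unchanged by median scaling, the pseudocount and both filters. Quantile normalization turned 1 of 70 (SRSF10 with SETD8 siRNA 2, -0.0017), averaging turned 10 of 70, averaging above the filter 8 of 70 and leaving out shared probe sets 6 of 54. HNRNPA1 with SETD8 siRNA 2 was 0.38 with probe sets averaged and 0.66 without shared ones. The cause of these changes was not tested. No paired analysis was possible because each group has 1 array and the labels give no replicate numbers. Low signals may be background, and values of dim probe sets are the least certain.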
